A study of Mus musculus with 6 samples.

Results

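Reads of mouse cortical miRNAs that carried 1 to 3 extra uridines at their 3' end were counted in 6 small RNA libraries. A member was a read of 19 to 26 nt that was in no named miRNA hairpin of GENCODE release M21, and that became a sense match of at least 18 nt without mismatch once the fewest possible 3' bases, all T, were removed. Of 2543604 distinct read sequences with 115958638 reads, 10083 sequences with 4746535 reads met this rule. They are called U-tailed reads here, since the T of a sequencing read stands for U in RNA. The sensorimotor cortex was taken from male mice of the wild-type inbred strain C57BL/6J, which were adult at postnatal day 90. In 3 mice the cervical cord had been cut completely through at the C5/6 level (SCI), and in 3 control mice it had been laid bare and left uncut. All 6 were sampled 7 days after surgery, and the submitters state that each sample was taken individually. The tissue is bulk cortex, in which fewer cells of a type and less RNA per cell cannot be told apart. The controls gave 1039673, 428916 and 1003505 U-tailed reads, and the SCI mice 599950, 890584 and 783907, in the order of their replicate numbers. They were assigned to hairpin arms, the 5' (5p) and 3' (3p) sides of the stem from which mature miRNAs are cut. A U-tailed read was found on 1034 of the 1421 arms with an untailed read, and 221 arms had at least 1000 untailed reads in every library. These 221 arms held 96.9% to 97.5% of the U-tailed reads.

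Uridines are added to the 3' ends of miRNAs and their precursors by terminal uridylyltransferases, chiefly TUT4 (Zcchc11) and TUT7 (Zcchc6). Tails on the let-7 precursor are known for their control by the protein LIN28, and tails on mature miRNAs have been described in connection with weaker target repression and with decay of miRNAs bound to extensively paired targets. A mature miRNA is recognised by its seed, bases 2 to 8 from its 5' end, and a 3' tail leaves the seed as it is.

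The sequences below show what was counted, for the arm with the highest U-tailed share (miR-652-3p) and the arm with the most U-tailed reads (miR-24-3p). The mature sequence is RefSeq's (GRCm38.p6), with the seed in capitals. The hairpin line gives the most abundant untailed read of the arm followed by the next base of the GENCODE hairpin, in capitals. The tailed line is the most abundant U-tailed read of the deposited tables, with the added base in capitals.
miR-652-3p, mature: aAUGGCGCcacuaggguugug
miR-652-3p, hairpin: aatggcgccactagggttgtgC
miR-652-3p, tailed: aatggcgccactagggttgtgT
miR-24-3p, mature: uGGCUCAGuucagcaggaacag
miR-24-3p, hairpin: tggctcagttcagcaggaacagG
miR-24-3p, tailed: tggctcagttcagcaggaacagT
The miR-652-3p tailed read had 43459 copies over the 6 libraries and made up 86.9% of that arm's U-tailed reads. The miR-24-3p tailed read had 559141 copies, 90.9% of that arm's. In both, the T stands where the hairpin has another base.

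The next sequences show 4 arms in which the tail did not follow the most abundant end. The tailed reads of miR-30e-3p, miR-9-5p and the 3p arm shared by let-7a-1 and let-7c-2 have T in the place of the last base of the most abundant read. A U added to a miRNA that is 1 base shorter and an exchange of the last base give the same read, and they cannot be told apart. In let-7b-5p the hairpin itself has T after the most abundant end, so that a single added U cannot be seen there.
miR-30e-3p, hairpin: ctttcagtcggatgtttacagcG
miR-30e-3p, tailed: ctttcagtcggatgtttacagT
miR-9-5p, hairpin: tctttggttatctagctgtatgaG
miR-9-5p, tailed: tctttggttatctagctgtatgT
let-7a-1-3p, hairpin: ctatacaatctactgtctttccT
let-7a-1-3p, tailed: ctatacaatctactgtctttcT
let-7b-5p, hairpin: tgaggtagtaggttgtgtggttT
let-7b-5p, tailed: tgaggtagtaggttgtgtggtttT
In each of these lines the capital is the next hairpin base or the added T, as above. The tailed read shown was 90.4% of the U-tailed reads of miR-30e-3p, 82.6% of those of miR-9-5p, 96.4% of those of let-7a-1-3p and 72.7% of those of let-7b-5p.

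Over the 221 arms, about 5% of reads carried added uridines. The U-tailed share, U-tailed reads over U-tailed plus untailed reads, was 5.40%, 4.82% and 4.85% in the control libraries and 4.90%, 4.87% and 5.004% in the SCI libraries. Control 1 was the highest of the 6, and the groups overlapped. A single added T made up 91.6% to 92.3% of the U-tailed reads of a library, 2 made up 6.89% to 7.42% and 3 made up 0.841% to 1.05%. The same rule applied to the other bases measures how often a last base differs from the hairpin for any reason. Each base's share was taken over the reads with that base added plus the untailed reads. Reads with other added bases are left out of it, so the shares of different bases are not parts of the same total. The share with a single added A was 4.36% to 5.23%, with a single C 0.240% to 0.255% and with a single G 0.233% to 0.279%. The share with a single T was thus 17.7 to 18.99 times the mean of the C and G shares. At ends that the hairpin continues with A, where T, C and G can all be seen, the T share was 21.04 to 22.96 times that mean. The U-tailed share, with 1 to 3 added T, stood above both the single-C and the single-G share in 191 of 219 arms (87.2%). It stood above the A-tailed share, with 1 to 3 added A, in 93. Across these arms the U-tailed and A-tailed shares had a Spearman rho of 0.38 (n = 219 arms of the same libraries, a description). Both shares have the same untailed reads in their totals, so part of this rho is built in.

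The tails were unevenly spread over the arms. The miR-24-3p arm alone held 13.3% of the U-tailed reads, the 5 arms with most held 44.1% and the 20 with most held 73.1%. Of the 219 arms with at least 10 U-tailed reads in total, 46 had a mean share above 10%, 119 lay between 1% and 10%, and 54 lay under 1%. The median over arms was 3.45% to 4.22% per library. The order of the arms was nearly the same in the groups, with a Spearman rho of 0.99 between the control and SCI means. The 1000-read limit left out miR-770-3p, with 990 untailed reads in its smallest library and a share of 26.8%, and took in miR-203-3p, with 1001 reads and a share of 16.9%.

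The miR-652-3p arm had the highest U-tailed share of the arms measured. Its hairpin lies in an intron of the coding gene Tmem164 (GRCm38 chrX:142739000-142739097, plus strand). Its share was 80.3%, 77.3% and 76.1% in the controls and 78.6%, 76.6% and 79.5% in the SCI libraries. All 6 libraries lay within a few percentage points and the groups overlapped. Of its U-tailed reads, 99.0% ended at the most abundant end. This arm was also the one with the highest A-tailed share, 31.9%, in whose total its many U-tailed reads are not counted.

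The 3p arm of let-7a-1 and let-7c-2, the passenger side of let-7 hairpins, had shares of 58.7%, 60.0% and 57.7% in the controls and 55.1%, 56.4% and 53.5% in the SCI libraries. The groups did not overlap, with SCI lower, and the difference did not pass the test (log2 fold change -0.10 ± 0.09 SE, edgeR adjusted p = 0.755). Of its tails, 99.9% sat before the most abundant end, at which the hairpin goes on with T. Its hairpins lie in exons of the long noncoding RNAs 6720427I07Rik (chr13:48538179-48538272, minus strand) and Lncppara (chr15:85706603-85706697, plus strand).

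The miR-143-3p arm, an miRNA of smooth muscle and mural cells, was U-tailed in over 50% of reads in every library. Its share was 60.8%, 55.3% and 56.9% in the controls and 51.8%, 54.2% and 52.1% in the SCI libraries. The groups did not overlap, SCI being lower, and the difference did not pass the test (-0.13 ± 0.07, edgeR adjusted p = 0.467). The miR-495-3p arm reached 46.4% to 56.3%, but its most abundant end is the last base of the annotated hairpin. Whether the next base of the gene is T was not analysed here, and at the ends after which the hairpin has a base other than T, which hold 1.06% of its untailed reads, the share was 4.23%.

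The remaining arms among the 10 highest were miR-24-3p at 43.0% ± 1.81 (mean ± SD over n = 6 libraries), miR-30e-3p at 33.3% ± 3.14, miR-148b-3p at 31.1% ± 1.30 and miR-30a-3p at 30.1% ± 2.81. They were followed by miR-488-3p at 28.0% ± 7.06 and miR-146a-5p, an miRNA induced in inflammation, at 27.5% ± 3.52. In miR-488-3p the spread came from control 1, at 41.7% against 22.8% to 28.7% in the other libraries. For the 10 highest arms, the 95% Wilson interval of a library's share was at most 3.23 points wide. This width leaves out the spread between libraries. It also takes each read as independent, although the reads carry no molecular identifiers.

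The 6 listed abundant neuronal arms had shares from 0.875% to 12.2%, with a median of 4.06% against 3.71% over all arms tested. The brain-enriched miR-9-5p, with 662555 or more untailed reads in every library, had 6.56% ± 0.614 (n = 6). Its partner miR-9-3p had 4.68% ± 0.623, and the activity-regulated miR-132-3p had 12.2% ± 0.642. In miR-124a-3p, a neuronal miRNA, the share was 3.43% ± 0.949, with control 1 at 5.28% and the other libraries at 2.76% to 3.45%. The share of miR-128-3p was 0.875% ± 0.0250 and that of miR-29a-3p was 1.66% ± 0.161. In miR-9-3p, 67.8% of the tails followed an end longer than the most abundant one, against 21.7% of its untailed reads. In miR-124a-3p 73.2% of the tails did, against 56.4% of the untailed reads. In miR-9-5p, 92.6% of the tails sat before the most abundant end, as did 57.1% of the untailed reads.

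Of the 54 arms with a share under 1%, 34 had T as the next hairpin base, at which a single added U is hidden. Between 40.4% and 42.2% of untailed reads ended where the hairpin goes on with T, so that a single added U would read as part of the hairpin. Of the 219 arms, 74 had T after their most abundant end, and their median share was 1.22%, against 4.73% in the other 145. Counting only tellable ends, those after which the hairpin has another base, the medians were 7.21% and 5.52%. The library-wide share at such ends was 7.91% to 8.68%. The miR-128-3p arm had 12.5% when counted that way, in place of 0.875%, on the 6.20% of its untailed reads with such an end. The 5 arms with the lowest shares were miR-543-3p (0.0271%), let-7f-5p (0.0328%), miR-335-5p (0.0428%), let-7a-5p (0.0568%) and miR-24-2-5p (0.0583%), and in each the hairpin, or 1 of its hairpins, has T after the most abundant end. At tellable ends they lay between 0.370% and 3.30%.

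Arms from the 3' side carried more tails than arms from the 5' side in every library. The pooled share of 3p arms was 7.17%, 7.07% and 7.01% in the controls and 6.83%, 6.89% and 7.02% in the SCI libraries. That of 5p arms was 3.70%, 3.00% and 2.92%, and 3.25%, 3.10% and 3.33%. The sides did not overlap. The difference was 3.48 to 4.08 percentage points and was positive in 6 of 6 libraries (two-sided exact sign-flip permutation test, p = 0.0312, the smallest that 6 libraries allow). This test covers the spread between libraries, which read the same arms, and not the spread between arms. At ends where an added T can be told it was 5.36 to 6.22 points. Of 101 3p arms 35 had a share above 10%, and of 118 5p arms 11 did. The 3p side was not the higher one in every hairpin. Among 31 hairpins with both arms measured, the 3p arm was higher in 18, in 16 of them in all 6 libraries, and the 5p arm in 13, in 11 of them in all 6. Over all ends, Mir30e was the widest in favour of 3p (33.3% against 2.37%) and Mir674 in favour of 5p (14.8% against 3.58%). At ends where an added T can be told these were Mir30a (48.0% against 2.42%) and Mir361 (23.1% against 1.26%).

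The share also depended on where the miRNA ended. At tellable ends, reads that stopped 2 bases short of the most abundant end were U-tailed in 1.68% to 2.03% of cases, and those that stopped 1 base short in 10.02% to 12.5%. At the most abundant end it was 8.36% to 8.67%, and at all longer ends together 11.8% to 13.3%. By the last matched base, the share was 13.1% ± 0.969 after G and 12.4% ± 2.33 after C, against 5.48% ± 0.233 after T and 4.46% ± 0.456 after A (n = 6 libraries). The value after C was above that after G in the 3 controls and below it in the 3 SCI libraries, and without miR-143-3p it was 5.93% to 7.78%. These pooled values weigh each arm by its reads, and the arms that stand behind each class differ.

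Members of some seed families, which share the bases that choose targets, differed widely in their tails. The 3 arms with the seed of miR-148 illustrate this, and so does the pair of miR-27 arms, which differ near the 3' end. Capitals mark the seed in the mature sequence and the added T in the tailed read.
miR-148b-3p, mature: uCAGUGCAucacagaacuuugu
miR-148b-3p, tailed: tcagtgcatcacagaactttgtT
miR-152-3p, mature: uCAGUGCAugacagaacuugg
miR-152-3p, tailed: tcagtgcatgacagaacttggT
miR-27a-3p, mature: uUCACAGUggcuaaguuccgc
miR-27a-3p, tailed: ttcacagtggctaagttccgcT
miR-27b-3p, mature: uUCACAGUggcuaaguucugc
miR-27b-3p, tailed: ttcacagtggctaagttctgT
The mean share was 31.1% in miR-148b-3p, 18.9% in miR-152-3p and 2.03% in miR-148a-3p. It was 21.2% in miR-27a-3p and 7.26% in miR-27b-3p. In their cluster neighbours the order was turned, with 22.8% in miR-23b-3p and 7.91% in miR-23a-3p. In each of these families the libraries of the highest member lay above all those of the lowest. The inflammatory pair miR-146a-5p and miR-146b-5p stood at 27.5% and 2.76%, and the X-linked pair miR-221-3p and miR-222-3p at 13.4% and 4.54%. The 2 arms miR-103-3p (10.8%) and miR-107-3p (10.9%) did not differ beyond the spread of their libraries. Other families also lay close, among them miR-99a-5p, miR-100-5p and miR-99b-5p (5.11% to 6.33%) and the miR-26 arms (4.25% to 5.26%).

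The let-7 family, whose precursors are the classical substrates of uridylation, had shares from 0.0328% to 14.2%. Of 10 listed 5p arms, 9 were measured. The highest were let-7i-5p, with 16.1%, 13.0% and 12.3% in the controls and 14.1%, 14.3% and 15.1% in the SCI libraries, and let-7e-5p, with 9.76% to 12.1%. Their groups overlapped. In both the hairpin goes on with G after the most abundant end, and the tails are visible.
let-7i-5p, hairpin: tgaggtagtagtttgtgctgttG
let-7i-5p, tailed: tgaggtagtagtttgtgctgttT
let-7e-5p, hairpin: tgaggtaggaggttgtatagttG
let-7e-5p, tailed: tgaggtaggaggttgtatagttT
let-7a-5p, hairpin: tgaggtagtaggttgtatagttT
let-7a-5p, tailed: tgaggtagtaggttgtataT
These lines set the 2 highest members beside let-7a-5p, whose hairpins have T at that place. There let-7a-5p measured 0.0568%, and 3.30% at tellable ends, which hold 1.69% of its untailed reads. Over the 9 arms the share at tellable ends ran from 1.57% in let-7g-5p to 17.8% in let-7i-5p, and let-7b-5p reached 15.6%. The other arms with G after the end were miR-98-5p (3.51%) and, at 1 of its 2 hairpins, let-7f-5p. SCI was higher in 4 and lower in 5 of the 9 arms, none passed, and the smallest edgeR adjusted p was 0.628. Their median log2 fold change was -0.01, against 0.03 over all 219 arms.

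Arms reported elsewhere as subject to target-directed decay, a process in which tails have been described, had no common level. The 10 listed arms ran from 0.0597% in miR-29b-3p to 21.2% in miR-27a-3p, with a median of 0.914%, against 3.71% over all arms tested. These values count all ends, also those that hide a single added U. At tellable ends miR-29b-3p had 1.56%, on 3.63% of its untailed reads, and miR-16-5p had 0.859%, on 37.6%. In miR-27a-3p and miR-335-3p nearly all ends were tellable. The miR-7a-5p arm, whose decay is linked to the RNA Cyrano in brain, had 0.0541% to 0.102% over the libraries, and 2.57% at the 2.73% of its ends where a tail can be told. In miR-221-3p the share was 13.4% ± 0.652 and in miR-16-5p 0.314% ± 0.0325 (n = 6). SCI was higher in 3 and lower in 7 of the 10, none passed (smallest edgeR adjusted p = 0.602), and the median log2 fold change was -0.08. The miR-26 family, whose uridylation by TUT4 has been described, had 4.25% ± 0.391 in miR-26a-5p and 5.26% ± 0.528 in miR-26b-5p, with SCI and control overlapping in both.

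Among hairpins made without the usual Drosha or Dicer cut, 3 of 9 listed arms had enough reads. Their shares were far apart. The miR-320-3p arm had 20.1% to 28.8% and miR-484, whose precursor starts at a transcription start, 14.8% to 16.8%. The erythroid miR-451a, which is trimmed at its 3' end after a cut by AGO2, had 0.0288% to 0.177%, from 77 U-tailed reads in all. In each of the 3 arms the groups overlapped and none passed the test.

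Between SCI and control, the library-wide share did not differ beyond the spread of the libraries. It was 5.03% ± 0.326 in the controls and 4.92% ± 0.0723 in the SCI libraries (SD, n = 3 each), a difference of -0.104 points (two-sided exact permutation test, p = 1.0). With 3 libraries against 3 this test cannot go below 0.1. The A-tailed share was 4.90% ± 0.132 and 5.47% ± 0.282, SCI being higher without overlap (exact permutation p = 0.1).

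Where pooled U-tailed shares separated the groups, the separation shrank or was lost without the arm miR-143-3p. At tellable ends whose last matched base is C, the share was 16.1%, 13.6% and 13.1% in the controls and 10.4%, 10.7% and 10.2% in the SCI libraries. Without miR-143-3p these values were 7.78%, 6.56% and 6.33%, and 6.24%, 5.97% and 5.93%, still without overlap. The 3p minus 5p difference at tellable ends was 6.04 ± 0.205 points in the controls and 5.49 ± 0.159 in the SCI libraries without overlap, and 4.46 ± 0.195 and 4.50 ± 0.0682 without miR-143-3p, with overlap. Exact permutation gave p = 0.1 for the former and 0.7 for the latter. At ends that the hairpin continues with A, the share was 8.06% ± 0.149 in the controls and 7.44% ± 0.181 in the SCI libraries without overlap (exact permutation p = 0.1). Without miR-143-3p it was 5.60% ± 0.225 and 5.84% ± 0.279, with SCI the higher and with overlap (exact permutation p = 0.3). The untailed level of miR-143-3p was 3724, 4567 and 4326 CPM (counts scaled by the library's untailed arm reads) in the controls and 3050, 3357 and 3190 in the SCI libraries, so it was lower in SCI without overlap. It held 10.2% to 11.3% of the U-tailed reads of the controls and 6.43% to 7.86% of those of the SCI libraries. The listed mural cell markers, miR-143-3p and miR-145a-5p, summed to 4234 to 5060 CPM in the controls and 3438 to 3838 in SCI. Most of each sum was miR-143-3p itself, so it is not a separate reading of these cells. The part of cell composition in these pooled values was not tested.

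For single arms, none of 219 passed an adjusted p of 0.05 in edgeR's quasi-likelihood test of the share (0% called), and the smallest adjusted p was 0.187. At an unadjusted p under 0.05 there were 19 (8.68%), 13 with SCI higher and 6 lower. The libraries did not overlap in 17 arms with SCI higher (7.76%) and in 14 with SCI lower (6.39%). The median log2 fold change was 0.03, with 130 arms higher and 89 lower. With TMM scaling of the shares, which takes out a common shift, the split was 97 higher and 122 lower. The median SE of an arm's log2 fold change was 0.14.

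The smallest p was that of miR-496a-3p, an arm of the imprinted chromosome 12 cluster (intron of Mirg, chr12:109739119-109739197, plus strand). Its share was 1.38%, 1.35% and 1.66% in the controls and 3.68%, 2.25% and 2.74% in the SCI libraries. Every SCI library lay above every control, and the log2 fold change was 0.96 ± 0.20 (edgeR adjusted p = 0.187). All its tails sat before the most abundant end, at which the hairpin goes on with T, and they came from 774 reads in all. Its mean share at tellable ends was 8.45%, on 23.5% of its untailed reads. Counting tellable ends only, the smallest edgeR adjusted p of any arm was 0.316. DESeq2, run on all ends, called miR-496a-3p (adjusted p = 0.00885).

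The other arms with the smallest p and SCI higher were miR-100-5p, miR-487b-3p, miR-582-5p and miR-329-5p. In miR-100-5p, of the miR-99/100 family, the share was 4.82%, 4.77% and 6.12% in the controls and 6.79%, 7.02% and 8.17% in the SCI libraries. The groups did not overlap (0.48 ± 0.14, edgeR adjusted p = 0.259). In miR-329-5p it was 3.34% to 4.15% against 4.68% to 5.44%, also without overlap. The miR-487b-3p and miR-582-5p arms did not overlap either, at levels under 0.5% over all ends and with 399 and 108 U-tailed reads in all. At tellable ends miR-487b-3p had 14.8%, on 1.76% of its untailed reads, and miR-582-5p had 0.432%, on 75.7%.

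With SCI lower, the smallest p was that of miR-9-3p. Its share was 5.70%, 4.84% and 4.94% in the controls and 4.11%, 4.51% and 4.01% in the SCI libraries, without overlap (-0.29 ± 0.09, edgeR adjusted p = 0.259). Its hairpin partner miR-9-5p lay the other way, with 6.31%, 6.09% and 5.93% in the controls and 7.24%, 6.39% and 7.40% in SCI, without overlap (0.20 ± 0.08, edgeR adjusted p = 0.467). The arms miR-340-3p and miR-15b-5p did not overlap either. In miR-342-3p (3.94% to 6.17% against 3.49% to 3.998%) and miR-488-3p the groups overlapped.

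Control 1 stood apart from the other libraries. In it the share was the highest of the 6 libraries in 95 of 219 arms, against 8 to 48 arms in each other library. Principal components were taken of the arms' log2 odds, tailed over untailed reads with a pseudocount of 0.5, in which arms with few tailed reads count as much as others. On the first, with 37.4% of the variance, control 1 lay at -4.11 and the others between -1.08 and 2.61. On the second, with 31.8% of the variance, the controls lay between -2.66 and -0.86 and the SCI libraries between 0.14 and 3.37. Without control 1, edgeR called 16 arms, 15 with SCI higher and 1 lower, and the median log2 fold change was 0.12. These were miR-219a-5p, miR-350-3p, miR-496a-3p, miR-129-5p, miR-329-5p, miR-126a-3p, miR-338-3p, miR-181a-5p, miR-126a-5p, miR-1843b-5p, miR-378a-3p, miR-181b-5p, miR-103-3p, miR-138-5p and miR-9-5p as the higher ones and miR-9-3p as the lower one. In the endothelial miR-126a-3p, for example, the share was 8.85%, 5.56% and 6.44% in the controls and 9.44%, 7.68% and 9.24% in SCI. There control 1 lay within the SCI range. In miR-126a-5p control 1, at 16.6%, lay above every SCI library (10.4% to 13.5%). In miR-1843b-5p it did so too, at 9.37% against 5.72% to 6.54%. With all 6 libraries the log2 fold change was 0.10 in miR-126a-5p, -0.03 in miR-1843b-5p and 0.08 in miR-338-3p. In miR-496a-3p, miR-9-5p and miR-9-3p control 1 lay on the side of the other controls. Nothing in the labels sets this library apart, and what makes it differ was not tested.

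The libraries were those of brain tissue. The 6 neuronal marker arms summed to 243930 to 263071 CPM in the controls and 230104 to 239080 in SCI, without overlap. The 2 endothelial markers summed to 11846 to 17712 CPM in the controls and 11876 to 15796 in SCI. The 3 oligodendrocyte markers summed to 5977 to 8652 CPM in the controls and 6042 to 6640 in SCI. Control 1 had the highest neuronal sum of the 6 libraries and the lowest endothelial and oligodendrocyte sums. The liver arm miR-122-5p was at 3.29 to 6.56 CPM. The 3 skeletal muscle markers summed to 562.4 to 608.0 CPM in the controls and 583.7 to 635.4 in SCI. Those of choroid plexus, 4 arms, summed to 803.4 to 1254 and 727.6 to 1291. The 4 markers of microglia and leukocytes summed to 1328 to 1593 in the controls and 1173 to 1390 in SCI, and the 3 erythroid ones to 930.1 to 1109 and 706.3 to 1850. The part of cell composition in the tailed shares of single arms was not tested.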

How the data were processed

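Each library's file, as deposited, lists read sequences and the raw count of each, per the file headers. Library totals were 10585062 to 24480988 reads. Per the submitters' processing notes the build was GRCm38. The trimmer is not given in the sources used here, nor are filters on reads. Per the labels' protocols, HD adapters were used, which carry degenerate bases.

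Reads were matched to 1174 GENCODE M21 hairpins on the sense strand without mismatch. An arm is the side of the hairpin's midpoint. Arms that shared their most abundant read, or 50% or more of the smaller one's reads, were merged, and reads of several arms (0.150% to 0.202% of U-tailed reads) were left out of arm counts. Untailed reads were those of 18 to 26 nt found whole in a hairpin. An end was tellable where the next hairpin base exists and is not T. RefSeq held a mature sequence for 192 of the 219 arms tested.

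The quasi-likelihood test of edgeR 4.0.16 (R 4.3.3) was run on U-tailed counts per arm, with the log of each arm's tailed plus untailed reads as offset, group as the only term and Benjamini-Hochberg adjustment over 219 arms (at least 1000 untailed reads in every library and 10 U-tailed reads in total). The SE is the fold change over the square root of the F statistic. DESeq2 1.42.0 and limma 3.58.1 were alternatives. The fit was tested on simulated data. Single values per library were compared with exact permutation tests. Other steps used scipy 1.17.1, numpy 2.4.6, pandas 2.3.3 and Python 3.11.15.

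Named arms are the 10 highest and 5 lowest in share, the 5 with most U-tailed reads, the 5 of smallest p in each direction, and listed arms. The pairs and families compared, the arms named without control 1 and miR-143-3p in the pooled shares were chosen after their values were seen. The members and lists were chosen with earlier results of these data known. No 2 libraries were copies of each other: chi-square per degree of freedom was 339.1 or more for every pair. P-values measure the spread between samples that the labels give as separate.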

Additional observations from a re-analysis of the deposited data

How the results depend on the processing

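Depth limits single arms more than the libraries' totals: the lowest arm tested, miR-543-3p, rests on 14 tailed reads, and the hairpin hides a single added U at 40.4% to 42.2% of untailed reads. The genome around hairpins was not used here, so bases past a hairpin's end are unknown.

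The library-wide difference of -0.104 points lay between -0.131 and -0.00542 under the alternatives that kept its sign. It turned to 0.00723 as a median over arms, and to 0.0865 without miR-143-3p, which was added after seeing the data. Leaving out 1 library gave -0.206 to 0.0837, above 0 only without control 1. With so few libraries no exact permutation p below 0.1 was possible. The 3p minus 5p difference was 0.362 points with 2 or 3 added T, 5.76 at tellable ends and 2.93 without miR-143-3p, positive in each. It was 3.72 to 3.84 with 1 library left out, where 5 libraries allow no exact permutation p below 0.0625. The ratio of T to C and G tails was 18.5, and 18.5 to 18.7 under the alternative read rules.

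No arm was called by edgeR in the main analysis (19 at an unadjusted p under 0.05). DESeq2 called 1 (15 unadjusted), and 0 were called by limma with either pseudocount (18 and 20 unadjusted). Leaving out 1 library gave 0 to 16 calls, the 16 without control 1 and 0 without each of the others. The median log2 fold change ran from -0.03 with TMM scaling to 0.12 without control 1. The replicate numbers of the labels gave correlations of 0.141, 0.0487 and -0.242 between same-numbered libraries, so they were not taken as pairs. With the replicate block 1 arm was called, miR-496a-3p. Of 52 named arms 21 had a difference larger than its SE, and 19 of these kept 1 sign in every setting. With 2 or 3 added T, miR-100-5p turned to -0.90 ± 0.74 SE and miR-30b-5p to 0.21 ± 0.22 SE on the log2 scale. Neither passed there (edgeR adjusted p = 0.775 and 0.826). The cause of the turn was not tested.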

Other observations

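Some arms had C added at their 3' end far above the general level. On miR-1983 the share with a single added C was 34.1% and the U-tailed share 16.8% (means over the 6 libraries). Each was taken over its own tailed reads plus the untailed reads. The share with a single C was 14.8% in miR-1a-3p, 10.2% in miR-668-3p, 9.63% in miR-323-3p and 6.12% in miR-485-3p, against 0.240% to 0.255% over all arms in a library. Their U-tailed shares were 0.203% in miR-1a-3p, 5.78% in miR-668-3p, 0.792% in miR-323-3p and 1.06% in miR-485-3p. Whether the added C matches the genome past the annotated hairpin, or another gene, was not analysed here.

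The miR-652-3p arm had the highest share of A tails (31.9%) as well as of U tails. Each of these shares leaves the reads with the other tail out of its total, so an arm with few untailed reads can be high in both. Next in A tails were miR-134-5p (24.8%) and miR-100-5p (24.7%), whose U-tailed shares were 7.06% and 6.28%. The miR-486-5p arm, read from the opposed hairpins Mir486 and Mir3107, had an A-tailed share of 21.5% and a U-tailed share of 26.3%.

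The miR-301a-3p arm had its U tails almost wholly on an end 2 bases longer than the most abundant one (89.0% in a single sequence). Its share was 7.07% in control 1 and 16.5% to 25.4% in the other 5 libraries, the opposite of the general direction of control 1.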
